A study of Chilo suppressalis with 6 samples.

Results

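Among the 38966 genes listed for larvae of *Chilo suppressalis*, the striped rice stem borer, 56 were present in every library of one diet group and listed at 0 in every library of the other. Of these, 29 were present only in larvae fed (E)-β-farnesene (Eβf), and 27 only in larvae fed the solvent control. The 56 genes were chosen by their FPKM: above 0 in all 3 libraries of one group, exactly 0 in all 3 libraries of the other, and a mean of 1 or more where present. FPKM is the number of sequenced fragments per kilobase of transcript, scaled to the fragments of the library, so it corrects for gene length and for the size of the library. In all, 34485 of the listed genes were above 0 in at least 1 library.

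Libraries were made from total RNA of whole 3rd instar larvae of a laboratory sensitive population, 3 libraries from larvae on a diet with 0.8 g/kg Eβf and 3 from larvae on the same diet with solvent. Eβf is a sesquiterpene that rice releases when caterpillars feed on it, and the study asked how its ingestion acts on the larvae. The protocol names 6 larvae, and it leaves unclear whether each library held 6 larvae or 1. A p-value here sets the difference between the groups against the spread between these libraries. Which columns of the table held the Eβf libraries was read from the letters of their codes, and every direction given here depends on that reading. Larvae were collected once they had reached the instar. Differences in age within the instar, or in which larvae lived to be collected, cannot be told apart from the diet.

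Genes of 2 kinds are listed. IDs that begin with evm were taken as gene models of the annotation that the authors used, and they run without a gap from 1 to 15653. IDs that begin with MSTRG are loci that StringTie numbers itself when it merges the assembled transcripts of all libraries, and these numbers reach 35267, of which 23313 were listed. StringTie assembles transcripts from aligned reads and then shares the reads at a locus among the models there, so a gene can be listed at 0 where no read fell on it or where its reads were assigned to an overlapping model. Which of the 2 applied to a given 0 was not tested. None of the IDs matched the RefSeq annotation used here (0 of its 11366 genes), so no symbol, protein, sequence or place in the genome is given for them.

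In whole larvae, fewer cells of a type and less RNA per cell cannot be told apart. A few well expressed genes were also listed at 0 in a single library. Between 2366 and 2651 genes were at 10 FPKM or more in the 5 libraries other than a given one, and 0.252% to 0.624% of them were at 0 in that one. The number at 0 was 13, 13 and 13 for Eβf replicates 1, 2 and 3, and 6, 15 and 10 for control replicates 1, 2 and 3. The smallest FPKM above 0 lay between 6.15e-06 and 0.000171 in the 6 libraries. Whole fragments were looked for in genes present in only one group and under 0.1 FPKM in each library, with up to 30 fragments tried and a tolerance of 0.01%. Whole ratios between the libraries were found for 10 of 69 such genes in the Eβf group (14.5%) and for 12 of 77 in the control (15.6%). No count, and no limit that a count of 0 allows, is therefore given. The number of genes at 1 FPKM or more was 10171 to 13033 in the Eβf libraries and 10529 to 12126 in the control libraries. General FPKM levels also differed between libraries. As a factor, the median ratio of a gene's FPKM to its geometric mean over the 6 libraries was taken. It was 0.752, 0.938 and 1.49 for Eβf replicates 1, 2 and 3, and 1.05, 1.25 and 0.730 for control replicates 1, 2 and 3. The rule used FPKM without this factor. Control replicate 3 stood apart from control replicates 1 and 2, with Pearson correlations across genes on the log2(FPKM + 1) scale of 0.77 and 0.81 against 0.92 between those 2 (genes are not independent replicates). By the authors' figures, control replicate 3 also had the lowest shares of aligned reads and of high-quality bases, and the highest GC content. Eβf replicate 3 was next lowest in both shares and had the lowest GC content. Whether library quality bears on the values in these libraries was not tested.

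Genes present in only one diet group were mostly loci that the assembly had added. Of the 29 genes present only after Eβf, 23 were MSTRG loci and 6 were evm models, which puts the MSTRG share at 79.3%. Among the 11443 genes that were above 0 in all 3 Eβf libraries with a mean of 1 or more, that share was 46.8%. Of the 27 genes present only in the control, 22 were MSTRG loci and 5 were evm models, a share of 81.5%, against 43.7% of the 11292 genes above 0 in all 3 control libraries with a mean of 1 or more. The members were 0.253% of the 11443 genes and 0.239% of the 11292 genes. Being listed at 0 throughout a group was more common among all genes above 0 in 1 or more libraries, at any level. It held for 2488 of them in the control (7.21%) and for 2768 in the Eβf group (8.03%). Another 17185 genes, 49.8%, were above 0 in all 6 libraries.

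Most of the genes present only after Eβf were expressed at a low level. Their mean FPKM ran from 1.04 to 28.3 with a median of 2.67, and the median of the 11443 genes was 6.02. Of the 29, 20 had a mean of 2 or more, 8 had a mean of 5 or more, and 5 had a mean of 10 or more. The evm models were the lower of the 2 classes, with a median of 1.31 FPKM against 2.90 FPKM for the MSTRG loci. Together the 29 genes held 115.0, 130.1 and 242.8 FPKM in Eβf replicates 1, 2 and 3, which was 0.00676%, 0.00747% and 0.0144% of the summed FPKM of each library.

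The highest gene of the Eβf set was MSTRG.20827, with 35.3, 12.8 and 37.0 FPKM in Eβf replicates 1, 2 and 3 (mean 28.3 ± 13.5, SD, n = 3) and 0 in each control library. Next came MSTRG.443, with 11.4, 15.4 and 45.4 FPKM in the Eβf libraries (mean 24.0 ± 18.6) and 0 in each control library. MSTRG.5320 had 5.33, 21.6 and 36.5 FPKM after Eβf (mean 21.1 ± 15.6) and 0 in the control. The SDs of these 3 loci were so wide that their order by mean is not fixed by the libraries. Eβf replicate 3 was the highest of the 3 libraries for each of them.

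The highest evm model was evm_014330, with 1.94, 23.6 and 23.1 FPKM after Eβf (mean 16.2 ± 12.4) and 0 in the control, so that Eβf replicate 1 lay far below replicates 2 and 3. MSTRG.6741 was steadier, with 8.10, 8.11 and 14.2 FPKM after Eβf (mean 10.1 ± 3.52) and 0 in the control. The second evm model by level, evm_005294, had 2.29, 4.55 and 12.1 FPKM after Eβf (mean 6.32 ± 5.15) and 0 in the control. MSTRG.22826 had 3.07, 7.29 and 8.14 FPKM and MSTRG.8577 3.29, 4.90 and 7.66 FPKM after Eβf, both with 0 in the control. The plot of FPKM by library shows that every gene below these 6 stayed under 10 FPKM in each Eβf library.

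**Figure D1:**
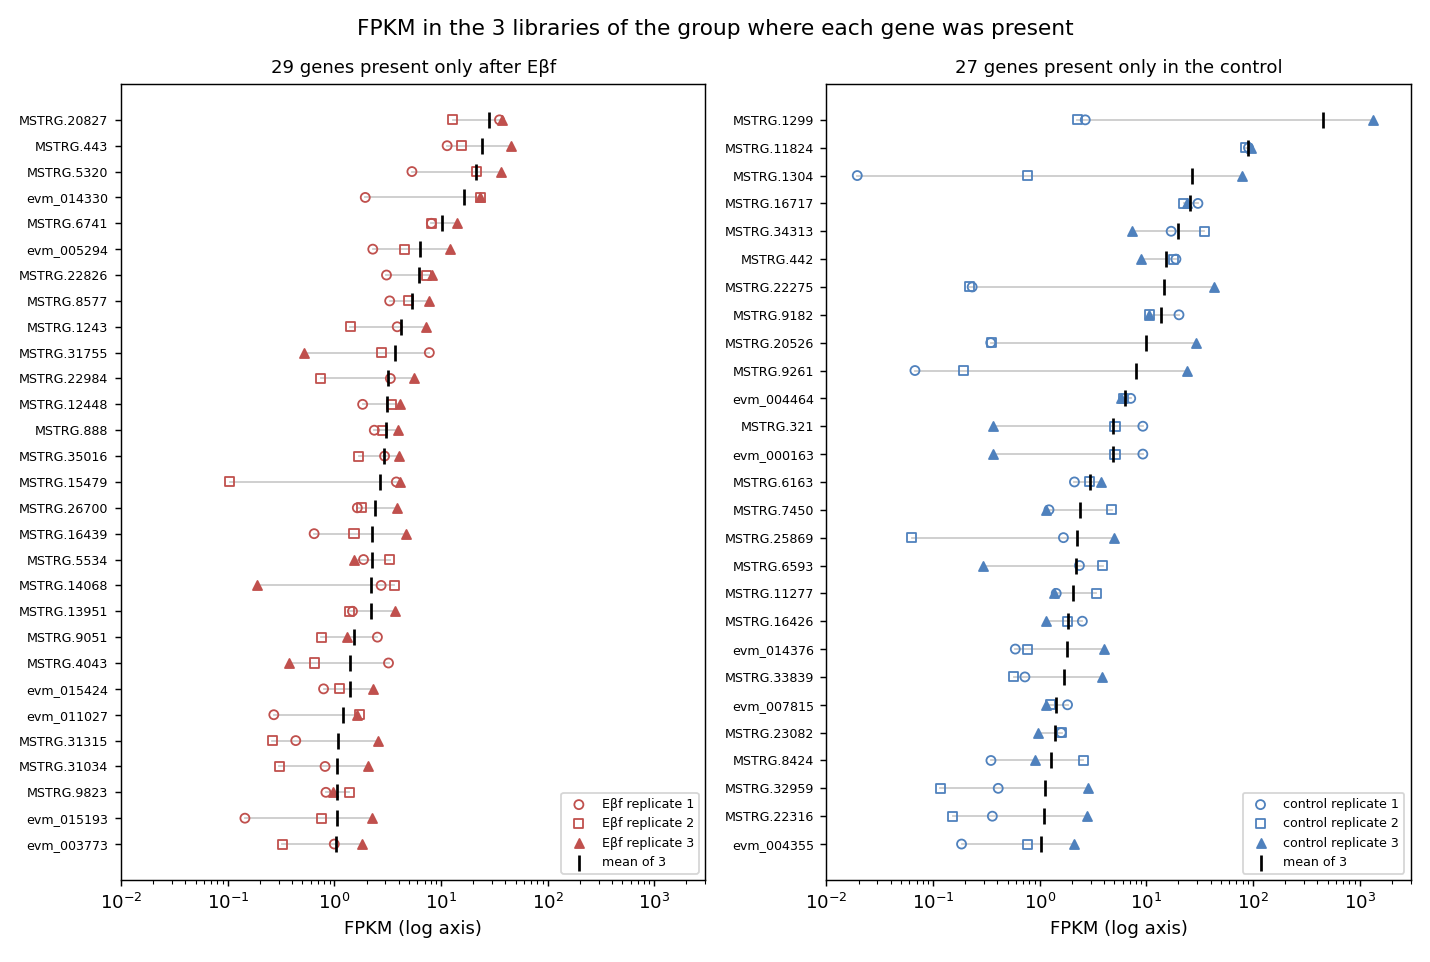
FPKM (log axis) of the genes present in only one diet group, ordered by mean, with 1 point per library and a tick at the mean of the 3 libraries. The 29 genes present only after Eβf reach a mean of 28.3, and the 27 present only in the control reach 451.3, where 1 library lies at 1349.

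The genes present only in the control held the most abundant members. Their mean FPKM ran from 1.02 to 451.3 with a median of 2.94, against 5.72 for the 11292 genes above 0 in all 3 control libraries, and 8 of the 27 had a mean of 10 or more. Their evm models had a median of 1.80 FPKM and their MSTRG loci one of 3.92 FPKM. In sum they held 223.8, 215.6 and 1708 FPKM in control replicates 1, 2 and 3, or 0.0136%, 0.0132% and 0.0964% of each library. A single locus made up most of the sum in control replicate 3: without MSTRG.1299 the sums were 221.1, 213.4 and 359.3 FPKM.

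MSTRG.1299 was listed at 0 in each Eβf library and had 2.67, 2.25 and 1349 FPKM in control replicates 1, 2 and 3 (mean 451.3 ± 777.5, SD, n = 3), so its mean without control replicate 3 was 2.46. MSTRG.1304, 5 numbers away, was at 0 in each Eβf library and had 0.0195, 0.762 and 78.9 FPKM in the control (mean 26.6 ± 45.3), with a mean of 0.391 without control replicate 3. Both loci were high in 1 library alone. MSTRG.34313 was at 0 after Eβf and had 17.1, 34.8 and 7.30 FPKM in the control (mean 19.7 ± 13.9), with control replicate 2 the highest.

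A second kind of control locus was close to constant. MSTRG.11824 was at 0 in each Eβf library and had 90.7, 84.9 and 95.6 FPKM in the control libraries (mean 90.4 ± 5.36). MSTRG.16717 was at 0 after Eβf and had 30.5, 22.4 and 24.3 FPKM in the control (mean 25.7 ± 4.23). The evm model evm_004464 had 0 FPKM in each Eβf library and 7.13, 6.06 and 5.75 FPKM in the control (mean 6.32 ± 0.725). For these 3 genes the highest control library was 1.13, 1.36 and 1.24 times the lowest. MSTRG.442, the sixth by level, was at 0 after Eβf and had 18.9, 18.1 and 8.89 FPKM in the control (mean 15.3 ± 5.57).

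At the median, the spread among libraries was wider for the members than for other genes. For the genes present only after Eβf, the highest library was 5.17 times the lowest at the median, against 2.79 times for the 11443 genes. For the genes present only in the control the median was 6.86 times, against 2.57 times for the 11292 genes. The comparison was similar at low levels: for a mean of 5 FPKM or less, it was 5.55 times over 21 members and 3.32 times over 5201 genes in the Eβf libraries, and 7.09 times over 16 members and 2.78 times over 5250 genes in the control libraries. The SD divided by the mean had a median of 0.702 for the Eβf set and 0.512 for the 11443 genes, and of 0.907 for the control set and 0.453 for the 11292 genes.

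**Figure D2:**
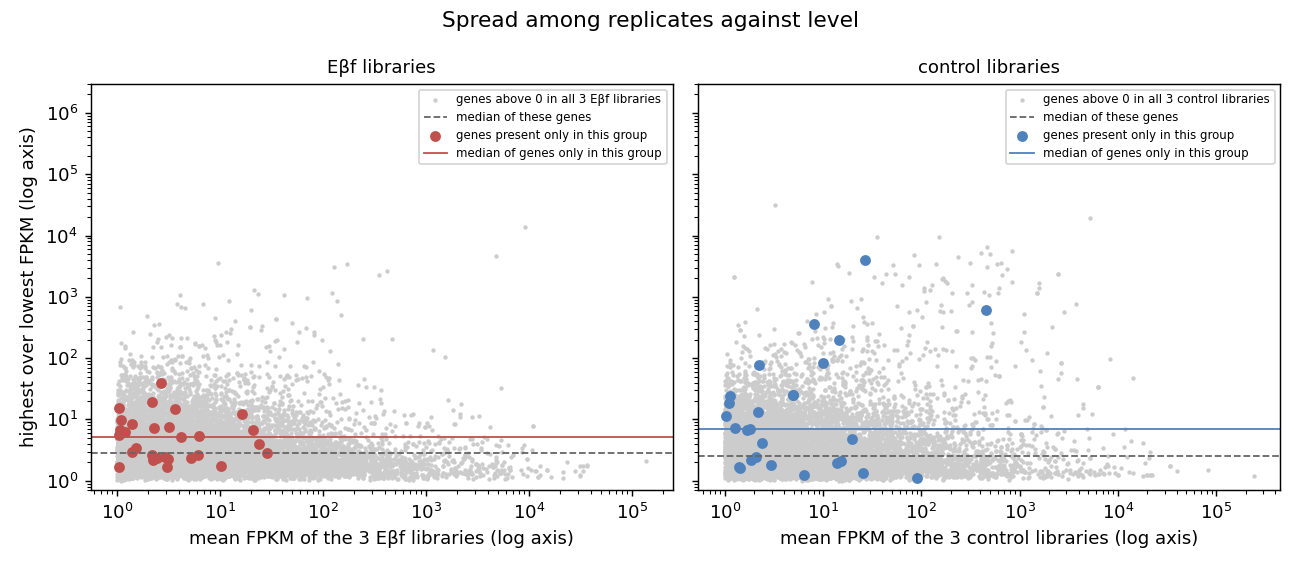
Highest over lowest FPKM of the 3 libraries of a group (log axis) against mean FPKM in that group (log axis), for genes present only in that group and for genes above 0 in all 3 of its libraries. The medians of the genes present in only one group, 5.17 in the Eβf libraries and 6.86 in the control libraries, lie above the 2.79 and 2.57 of all genes above 0 in the group.

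Wide spreads were more common in the control set than among all genes, and narrow ones were less common in both sets. A spread of 10 times or more was found for 5 of the 29 Eβf genes (17.2%, against 12.4% of the 11443) and for 12 of the 27 control genes (44.4%, against 13.5% of the 11292). A spread of 2 times or less was found for 3 Eβf genes (10.3%, against 29.5%) and for 7 control genes (25.9%, against 33.9%). Some members are named here after their values were seen. MSTRG.15479 had the widest spread of the Eβf set, with 3.80, 0.104 and 4.11 FPKM after Eβf and 0 in the control. MSTRG.9823 had the narrowest, with 0.832, 1.37 and 0.962 FPKM after Eβf and 0 in the control.

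Replicate 3 was the highest library for 21 of the 29 Eβf genes, which was 72.4% of them and near the 67.2% of the 11443 genes. In the control set replicate 3 was the highest for 13 of the 27 genes, or 48.1%, against 22.1% of the 11292 genes. A single library held over 50% of the summed FPKM of 18 Eβf genes (14 of them in Eβf replicate 3) and of 18 control genes (11 of them in control replicate 3). For all genes above 0 in the group these shares were 51.4% after Eβf and 38.7% in the control. No Eβf gene had over 90% of its FPKM in 1 library, and 0.909% of the 11443 genes did. Of the control genes, 5 did, all in control replicate 3, against 2.76% of the 11292 genes.

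Besides MSTRG.1299 and MSTRG.1304, those 5 were MSTRG.22275, MSTRG.20526 and MSTRG.9261. MSTRG.22275 was at 0 after Eβf and had 0.233, 0.219 and 43.0 FPKM in the control. MSTRG.20526 was at 0 after Eβf and had 0.347, 0.356 and 29.1 FPKM in the control, and MSTRG.9261 was at 0 after Eβf with 0.0676, 0.192 and 24.0 FPKM in the control. Without control replicate 3, the other 2 libraries of MSTRG.22275, MSTRG.20526 and MSTRG.9261 were all under 1 FPKM, below the minimum of the rule. Without that library 17 of the 27 control genes met the rule, and 40 genes met it in all.

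Some loci with numbers next to or near these 5 had their highest value in the same library. MSTRG.22274, beside MSTRG.22275, had 740.4, 107.2 and 86.1 FPKM in the Eβf libraries and 517.0, 581.3 and 17551 FPKM in the control libraries. MSTRG.9262, beside MSTRG.9261, was at 0 after Eβf and had 0.0178, 0 and 2.10 FPKM in the control. MSTRG.1302, between MSTRG.1299 and MSTRG.1304, was at 0 after Eβf and had 0, 0.0990 and 0.728 FPKM in the control. For each of these 3 loci control replicate 3 was the highest of the 6 libraries.

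Around MSTRG.20526, the IDs from MSTRG.20520 to MSTRG.20530 held further loci that were high in the control, while MSTRG.20523 was at 0 in all 6 libraries and MSTRG.20521 was above 0 in 1 library of each group. MSTRG.20527, the next number up, had 22.0, 4.04 and 2.51 FPKM in the Eβf libraries and 0, 0 and 16040 FPKM in the control libraries. It did not pass limma's test (adjusted p = 0.848), and control replicates 1 and 2 lay below all 3 Eβf libraries. MSTRG.20525, the next number down, had 120.7, 2.23 and 10.3 FPKM after Eβf and 1488, 667.8 and 366.2 FPKM in the control, with no overlap between the groups (log2 fold change -5.44, limma adjusted p = 0.0747). MSTRG.20528 had 0, 0.224 and 0.139 FPKM after Eβf and 11.2, 4.75 and 32.0 FPKM in the control, and it passed limma's test (log2 fold change -3.57, SE 0.64, adjusted p = 0.0428). Farther out, MSTRG.20520 had 1.13, 0.253 and 0.492 FPKM after Eβf and 67.3, 27.9 and 33.8 FPKM in the control, and it passed (log2 fold change -4.69, SE 0.51, adjusted p = 0.0155). MSTRG.20530 had 11.7, 4.79 and 8.02 FPKM after Eβf and 215.5, 215.7 and 478.8 FPKM in the control, and it passed too (log2 fold change -5.02, SE 0.54, adjusted p = 0.0155). MSTRG.20524 and MSTRG.20529 were also lower after Eβf without overlap, but they did not pass (limma adjusted p = 0.0696 and 0.110). Of the fits that left out 1 library, MSTRG.20528 passed only without control replicate 3 (adjusted p = 0.0275). MSTRG.20520 and MSTRG.20530 passed without Eβf replicate 1, control replicate 1 or control replicate 3. They did not pass without Eβf replicate 2, Eβf replicate 3 or control replicate 2 (limma adjusted p = 0.0547 to 0.0755 for MSTRG.20520 and 0.0609 to 0.0689 for MSTRG.20530). This stretch was singled out after its values were seen.

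**Figure D3:**
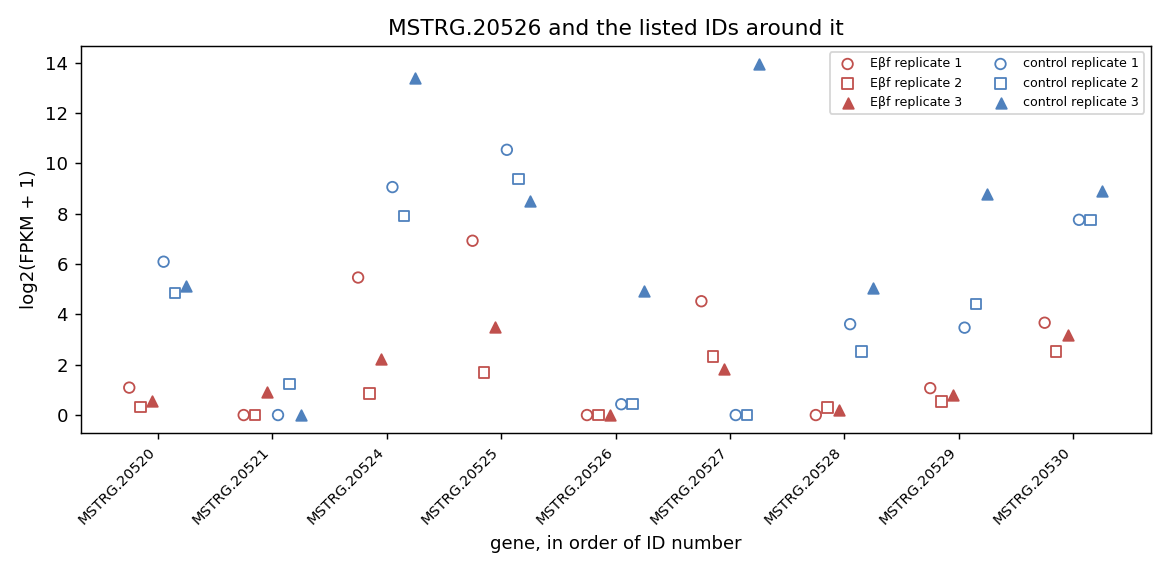
Level of the loci numbered around MSTRG.20526 as log2(FPKM + 1), with 1 point per library, Eβf left of control at each locus. MSTRG.20526 is at 0 in the 3 Eβf libraries and reaches 29.1 FPKM in control replicate 3, and MSTRG.20527 reaches 16040 FPKM in that library with 0 in control replicates 1 and 2.

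The numbers of MSTRG loci follow the assembly, and neighbouring numbers can be overlapping or adjoining loci, though their places were not known here. Only 1 pair of members had consecutive numbers, and its loci belonged to opposite groups. MSTRG.442 was present only in the control and MSTRG.443 only after Eβf. Summed over both, the pair had 11.4, 15.4 and 45.4 FPKM in the Eβf libraries (mean 24.0 ± 18.6) and 18.9, 18.1 and 8.89 FPKM in the control libraries (mean 15.3 ± 5.57). Because each locus was at 0 in one group, the sums are the values of MSTRG.443 after Eβf and of MSTRG.442 in the control. The summed values of the 2 groups overlapped, which shows only that the loci had similar levels. Whether they share reads was not tested.

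Over all neighbouring numbers, most genes did not separate the groups. The 29 Eβf genes had 58 neighbouring places, of which 15 were not listed, 1 held another member and 4 held a gene at 0 in all 6 libraries. Of the 38 genes left, 6 (15.8%) were higher in all 3 Eβf libraries than in all 3 control libraries, against 7.41% of all genes (2557 genes). Another 3 (7.89%) were lower without overlap, against 7.27% of all genes (2506 genes), and 29 overlapped. Of the same 38 genes, 22 were above 0 in all 6 libraries. Of the 6 that were higher after Eβf, MSTRG.22827, MSTRG.1244, MSTRG.5533 and MSTRG.31756 stayed under 1 FPKM in every library.

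The 27 control genes had 54 neighbouring places, of which 20 were not listed, 1 held another member and 6 held a gene at 0 throughout. Of the 27 genes left, 4 (14.8%) were lower after Eβf without overlap, against 7.27% of all genes, and 1 (3.70%) was higher without overlap, below the 7.41% of all genes. The other 22 overlapped. Of the same 27 genes, 12 were above 0 in all 6 libraries. A neighbour was at 0 in all 3 libraries where the member was at 0 in 6 of 38 cases (15.8%) for the Eβf set and in 4 of 27 cases (14.8%) for the control set. Among the IDs up to 3 numbers away, that share was 7.34% of 109 genes for the Eβf set, near the 7.21% of all genes, and 14.6% of 96 genes for the control set, against 8.03% of all genes.

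The 4 neighbours that were higher in the opposite group without overlap are given first, though their shares, 7.89% in the Eβf set and 3.70% in the control set, were near or below those of all genes. MSTRG.12448 had 1.84, 3.45 and 4.13 FPKM after Eβf and 0 in the control. Its neighbour MSTRG.12447 had 0.452, 0.861 and 0.734 FPKM after Eβf and 35.3, 35.6 and 19.5 FPKM in the control, and it was lower after Eβf by limma (log2 fold change -4.17, SE 0.45, adjusted p = 0.0155). MSTRG.9051 had 2.53, 0.751 and 1.32 FPKM after Eβf and 0 in the control. Its neighbour MSTRG.9050 had 0, 0.0785 and 0 FPKM after Eβf and 12.5, 15.4 and 7.16 FPKM in the control (log2 fold change -3.57, SE 0.41, limma adjusted p = 0.0170).

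A control gene had a neighbour that was higher after Eβf. The model evm_004355 was at 0 after Eβf and had 0.185, 0.762 and 2.11 FPKM in the control, while its neighbour evm_004354 had 19.4, 10.1 and 24.5 FPKM after Eβf and 1.06, 2.12 and 2.67 FPKM in the control (log2 fold change 2.65, SE 0.51, limma adjusted p = 0.0490). MSTRG.26700 had 1.64, 1.79 and 3.83 FPKM after Eβf and 0 in the control. Its neighbour MSTRG.26699 had 0.0269, 0.146 and 0.327 FPKM after Eβf and 2.05, 1.76 and 1.19 FPKM in the control, without overlap but not past the threshold (log2 fold change -1.19, limma adjusted p = 0.0747). Of the 10 neighbours that differed in the direction of the member without overlap, 6 in the Eβf set and 4 in the control set, 1 passed limma's threshold: evm_003773 had 0.996, 0.325 and 1.80 FPKM after Eβf and 0 in the control, and evm_003772 had 4.11, 4.77 and 6.10 FPKM after Eβf and 0.807, 0.700 and 0.509 FPKM in the control (log2 fold change 1.83, SE 0.35, limma adjusted p = 0.0483).

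**Figure D4:**
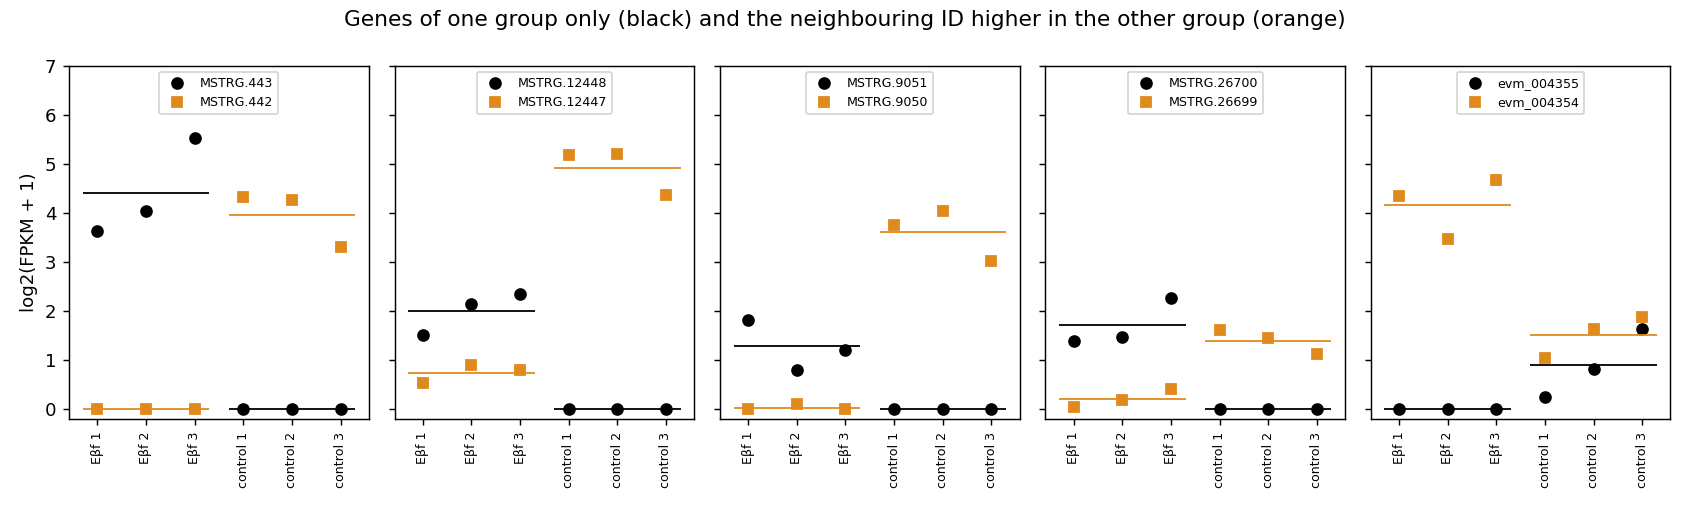
Level by library as log2(FPKM + 1) of members (black) and of the genes with the neighbouring number that were higher in the opposite group (orange), with lines at the group means on that scale. Neighbours on the side of the member are not drawn. MSTRG.443 spans 11.4 to 45.4 FPKM in the Eβf libraries with 0 in the control, and MSTRG.442 spans 8.89 to 18.9 FPKM in the control libraries with 0 after Eβf.

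Where a neighbour overlapped between the groups, the libraries of a member could still differ from one another. MSTRG.14068 had 2.74, 3.64 and 0.188 FPKM in Eβf replicates 1, 2 and 3 and 0 in the control. Its neighbour MSTRG.14067 had 0.0768, 0.0589 and 12.3 FPKM after Eβf and 18.4, 19.0 and 7.58 FPKM in the control (log2 fold change -2.59, limma adjusted p = 0.267). Eβf replicate 3 was thus the lowest Eβf library for the member and the highest for its neighbour. Among the evm members, evm_007815 and evm_011027, besides evm_003773, had a neighbour that separated the groups on the side of the member. The model evm_007815 was at 0 after Eβf and had 1.82, 1.27 and 1.15 FPKM in the control, and evm_007816 had 1.70, 0.862 and 2.29 FPKM after Eβf and 17.1, 22.5 and 4.93 FPKM in the control (log2 fold change -2.42, limma adjusted p = 0.0974). For evm_011027, with 0.270, 1.71 and 1.64 FPKM after Eβf and 0 in the control, the neighbour evm_011026 had 6.92, 11.7 and 21.8 FPKM after Eβf and 2.27, 1.23 and 0.851 FPKM in the control (log2 fold change 2.47, limma adjusted p = 0.0638). Both neighbours separated the groups without passing the test. These members were named after their values were seen.

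MSTRG.12447, MSTRG.9050, evm_003772 and evm_004354 were the only neighbours of 25 tested to pass limma's threshold, which was 16.0% of them. Over all 11932 genes tested, 182 were higher after Eβf (1.53%) and 63 were lower (0.528%), so that 2.05% passed in either direction. The calls were not stable to single libraries: MSTRG.12447 and MSTRG.9050 passed without Eβf replicate 1 and without control replicate 3. Without Eβf replicate 2, Eβf replicate 3, control replicate 1 or control replicate 2 the limma adjusted p was 0.0586 to 0.0755 for MSTRG.12447 and 0.0561 to 0.0835 for MSTRG.9050. Whichever library was left out, evm_003772 (0.0737 to 0.190) and evm_004354 (0.0527 to 0.172) did not pass. Over all 14 alternatives the adjusted p ran from 0.00544 to 0.0767 for MSTRG.12447, from 0.00544 to 0.0835 for MSTRG.9050, from 0.0269 to 0.202 for evm_003772 and from 0.0452 to 0.172 for evm_004354. Of the members themselves, 27 were at 1 FPKM or more in all 3 libraries where present, 15 in the Eβf set and 12 in the control set, and so entered the fit. Of these 11 and 9 passed, from the same contrast that chose them, and nothing is read from that count.

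Identical values joined 1 further pair. MSTRG.321 and evm_000163 were both at 0 in each Eβf library and had the same 9.27, 5.08 and 0.367 FPKM in control replicates 1, 2 and 3. Whether they are 1 locus listed under both kinds of ID was not tested, and the control set held 27 IDs with 26 distinct profiles. Identical profiles were found for 1048 of the 34485 genes above 0 in some library, or 3.04%.

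The rule set the membership at 2 edges. At the mean of 1, the lowest Eβf members were evm_003773 with a mean of 1.04 FPKM and evm_015193 with 0.145, 0.761 and 2.25 FPKM after Eβf (mean 1.05). The nearest genes outside were evm_004062, with 0.0910, 0.562 and 2.23 FPKM after Eβf (mean 0.963), and MSTRG.24879, with 0.747, 0.871 and 1.18 FPKM (mean 0.934). For the control, evm_004355 with a mean of 1.02 FPKM and MSTRG.22316 with 0.360, 0.152 and 2.79 FPKM (mean 1.10) lay inside. MSTRG.3598, with 0.0931, 0.0117 and 2.87 FPKM (mean 0.993), and MSTRG.13105, with 0.510, 1.35 and 0.943 FPKM (mean 0.933), lay outside.

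The other edge was the 0. In the direction of Eβf, 110 genes met the rule but for 1 control library, and in the direction of the control 106 did but for 1 Eβf library. The value in that library had a median of 1.27 FPKM for the 110 and 0.592 FPKM for the 106. The highest of the 110 was MSTRG.22409, with 4341, 4764 and 4679 FPKM in the Eβf libraries and 0, 0 and 173.9 FPKM in the control libraries. It was followed by evm_006910, with 0.273, 181.2 and 230.3 FPKM after Eβf and 0, 0 and 22.9 FPKM in the control. The highest of the 106 was evm_002833, with 0, 0.254 and 0 FPKM after Eβf and 0.215, 0.354 and 1384 FPKM in the control. It was followed by evm_011472, with 0, 0.397 and 0 FPKM after Eβf and 0.328, 0.352 and 544.9 FPKM in the control. In both directions the highest gene outside by 1 library had a higher mean than the highest member.

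Without the minimum, 218 genes were present only after Eβf and 274 only in the control, of which 189 and 247 had a mean under 1. The MSTRG share of these larger sets was 76.1% after Eβf and 62.8% in the control. Of all 38966 genes listed, 23313 were MSTRG loci. The 46.8% and 43.7% given above hold only for genes with a mean of 1 or more. Leaving out 1 library gave 38 to 74 genes present only after Eβf and 40 to 65 present only in the control. The count present only after Eβf was 64, 38 and 43 without Eβf replicates 1, 2 and 3, and 66, 57 and 74 without control replicates 1, 2 and 3. The count present only in the control was 65, 61 and 61 without Eβf replicates 1, 2 and 3, and 52, 53 and 40 without control replicates 1, 2 and 3. A rule over 5 libraries asks less of a gene than one over 6, so larger counts follow from leaving a library out. Of the 29 Eβf members, 28, 27 and 23 met the rule without Eβf replicates 1, 2 and 3. Of the 27 control members, 27, 26 and 17 met it without control replicates 1, 2 and 3. All 29 and all 27 met it whichever library of the other group was left out, but this follows from the rule. A member is present in no library of that group, so leaving out 1 of those libraries cannot remove it. The plot of counts under other rules shows the totals.

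**Figure D5:**
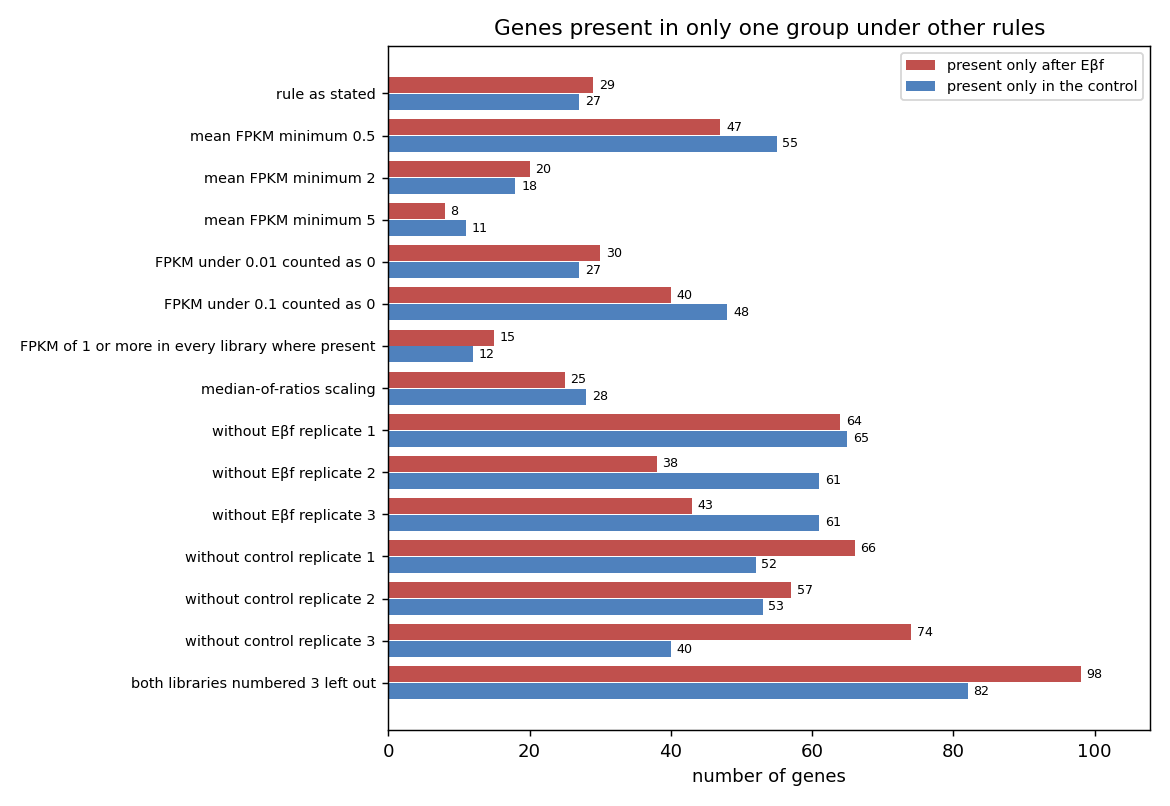
Number of genes present in only one diet group (horizontal axis) under the stated rule and under other rules, with 1 bar for genes present only after Eβf and 1 for genes present only in the control. The counts are 29 and 27 under the stated rule, and lie between 8 and 98 for Eβf and between 11 and 82 for the control under the others.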

How the data were processed

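RNA of 3rd instar larvae was sequenced in 3 Eβf and 3 control libraries. The authors used HISAT2 to align the reads and StringTie to quantify genes, and FPKM was deposited as 1 table. The tool versions, the build and the annotation were not given in the sources used here. A second header line with other library codes was skipped. Columns with TFN in the name were read as Eβf and those with TYC as control, from their letters alone. Whole fragments could not be recovered for most genes looked at, so the number of fragments per gene is unknown. Steps among low FPKM values did give a depth of each library relative to control replicate 1. It was 1.52, 1.28 and 0.966 for Eβf replicates 1, 2 and 3, and 1.23 and 0.971 for control replicates 2 and 3. The rule did not use these depths.

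The filter for testing was 1 FPKM or more in 3 or more of 6 libraries, and the test was limma 3.58.1 (R 4.3.3) on log2(FPKM + 1), with a mean-variance trend, two-sided, and Benjamini-Hochberg adjustment over the 11932 genes at 0.05. Fold changes are on that scale. The test was tried on simulated data. Python 3.11.15, pandas 2.3.3, numpy 2.4.6 and matplotlib 3.10.9 were used for the rest. Members, lists and rules were chosen with earlier results of these data known. By the rule for naming, the members named were the 6 highest of each direction, those at the edges of the rule, those with consecutive or identical entries, and neighbours past the threshold or opposite without overlap. Others (among them evm_004464, MSTRG.22826, MSTRG.8577, MSTRG.15479, MSTRG.9823, MSTRG.14068, MSTRG.22275, MSTRG.9261 and MSTRG.23082) were named after their values were seen. No pathway list could be used because no ID was paired with a name. Alternatives were other minimums, floors, pseudocounts, filters and scalings, no trend, a replicate block, and libraries left out.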

Additional observations from a re-analysis of the deposited data

How the results depend on the processing

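Beside the 29 genes present only after Eβf and the 27 present only in the control, the counts were 47 for Eβf and 55 for the control with a mean FPKM minimum of 0.5, 8 and 11 with one of 5, and 15 and 12 with 1 FPKM or more in every library where present. With FPKM under 0.1 counted as 0 they were 40 for Eβf and 48 for the control. With no library numbered 3 the counts were 98 for Eβf and 82 for the control, of which 23 and 17 were members. Leaving out members with over 50% of their FPKM in 1 library, an alternative chosen after seeing the data, left 11 for Eβf and 9 for the control. Leaving out single libraries gave 38 to 74 for Eβf and 40 to 65 for the control. Scaling by median of ratios gave 25 and 28, and a minimum of 2 gave 20 and 18.

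Over all genes limma called 182 higher and 63 lower after Eβf. The counts were 108 and 35 with a pseudocount of 0.1, 34 and 14 with 0.01, 3 and 3 with no filter, and 24 and 13 with a mean of 0.1 FPKM or more. With other scalings they were 217 and 126 (median of ratios) and 184 and 151 (quantile). Both scalings called more genes lower and no fewer higher, but not all of the same genes. Median of ratios kept 147 of the 182 higher calls and 50 of the 63 lower calls. Quantile scaling kept 139 of the higher calls and 57 of the lower calls. Single libraries left out gave 1 to 241 higher and 1 to 139 lower. Among neighbours, with 2 higher and 2 lower, higher calls were 0 with pseudocounts of 0.1 and 0.01, with no filter and with the filter on the mean, and 1 without the trend. Lower calls were 1 with a pseudocount of 0.01, 0 with no filter, and 4 with either scaling. Single libraries left out gave 0 higher and 0 to 3 lower. The causes were not tested.

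The replicate numbers did not pair the libraries: same-numbered deviations correlated at 0.146, -0.328 and -0.162. With the number as a replicate block limma called 0 genes higher and 0 lower, with 1408 genes at an unadjusted p under 0.05, and 0 and 0 neighbours, with 11 at an unadjusted p under 0.05. Low FPKM and 3 libraries per group limit every count here.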

Other observations

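Near MSTRG.20526, 2 pairs of loci were compared by their ratio. The FPKM of MSTRG.20524 was 0.358 times that of MSTRG.20525 in the 3 Eβf libraries and in control replicates 1 and 2, and 29.6 times in control replicate 3. The FPKM of MSTRG.20529 was 0.0937 times that of MSTRG.20530 in the 3 Eβf libraries, and 0.0469, 0.0938 and 0.920 times in control replicates 1, 2 and 3. These are values noticed in the data, and no cause was tested.

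MSTRG.23082, present only in the control with 1.59, 1.61 and 0.969 FPKM, kept a fixed ratio to the model evm_001840, which was 16.1 times as high in each control library to within 0.1%. That model had 22.6, 40.6 and 36.7 FPKM in the Eβf libraries and 25.7, 26.0 and 15.6 FPKM in the control libraries, so the ratio did not hold after Eβf, where MSTRG.23082 was listed at 0. It was found by comparing each of the 56 members with every listed gene, over only the 3 libraries where the member was present. The search gave 3 matches, of which the rest were MSTRG.321 and evm_000163 with each other. How many matches such a search would give for unrelated genes was not tested.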
